A study of Homo sapiens with 9 samples.

Results

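Secreted angiogenic factors are proteins that cells release to make blood or lymph vessels grow or to hold that growth back. The members were named by gene symbol, and every probe whose transcript accession belongs to a member gene was taken, which gave 9 of the 21743 named genes on the array and 13 of its 50599 probes. They are VEGFA, VEGFB, VEGFC and PGF of the vascular endothelial growth factor family, FGF2, PDGFA, ANGPTL4, ADM and the inhibitor THBS1. Their RNA was read in 3 groups of A549 cells with 3 arrays a group, 9 in all, from Agilent and in a single colour. A549 is a human lung adenocarcinoma line. Parental A549 cells carried no introduced gene, and their titles give the numbers 98, 98 and 99 after the letter P, read here as the passage. OSK-A549-Colony cells are the colonies that formed after A549 cells received OCT3/4, SOX2 and KLF4 from retroviruses, at later passages. OSK-A549-SN cells are the spindle-shaped cells that grew out around such colonies, at the same passages as the colonies by replicate, and were separated because trypsin released them from the dish earlier. The methods describe the RNA as coming from separate transduction experiments, but parental cells were not transduced, and whether their replicates are separate cultures is not stated. The SD and p of comparisons with parental A549 are to be read with that in mind. No array of transduced cells had as low a passage as a parental array, so passage and transduction cannot be told apart. The study asked which genes set the colony cells apart. It reported genes annotated to blood vessel development as upregulated in them and left the functions of those genes to further evaluation.

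The vascular endothelial growth factors act on receptor tyrosine kinases of endothelial cells: VEGFA mainly through KDR, PGF and VEGFB through FLT1, and VEGFC through FLT4, the receptor of lymphatic endothelium. FGF2 and PDGFA act on growth factor receptors of endothelial and of mural or stromal cells, adrenomedullin (ADM) on a G protein-coupled receptor, and thrombospondin 1 (THBS1) counters vessel growth through CD36 and CD47. Tumour cells are a common source of these ligands, and low oxygen is a well-known inducer of VEGFA, ANGPTL4 and ADM.

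Levels are given as log2 intensity relative to the 75th percentile of the same array, so 0 marks a probe at that percentile. The 75th percentile itself lay at an intensity of 217.5 to 270.6. Each of the 13 probes was detected on each of the 9 arrays, that is, it was positive, significant and well above background, against 23758 of all 50599 probes. Within a group, Pearson's r between arrays over those 23758 probes was 0.983 to 0.993 for parental A549, 0.994 to 0.997 for Colony and 0.987 to 0.996 for SN. Parental replicate 3 was the array farthest from the other 2 of its group for 10 of the 13 member probes (76.9%), beside 59.4% of the 23758 probes. SN replicate 3, which was alone on a slide, was farthest in its group for 7 member probes (53.8%), beside 53.2% of all. In RNA from whole cultures, fewer cells of a type and less RNA per cell cannot be told apart. With so few arrays a group, the precision of each comparison is limited.

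PGF, placenta growth factor, which binds FLT1 and not KDR, was represented by probe A_33_P3276693. Its level was -0.93, -0.12 and -0.08 in parental A549, -2.57, -2.23 and -2.17 in Colony, and -1.70, -1.47 and -1.67 in SN. Parental A549 was highest, SN lay between and Colony was lowest, and no array of any group reached into the range of another. The means were -0.37 ± 0.48, -2.32 ± 0.21 and -1.62 ± 0.13 (SD, n = 3). Parental replicate 1 stood apart from the other 2 parental arrays on the low side. On the linear scale the intensity was 134 to 232 in parental A549 and 42.4 to 53.8 in Colony, so the Colony signal was dim but above background on every array.

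FGF2, a heparin-binding fibroblast growth factor that drives endothelial and fibroblast growth, was read by 2 probes. Probe A_33_P3419696 gave -0.96, -1.14 and -1.84 in parental A549, 0.08, 0.15 and 0.30 in Colony, and -0.52, -0.76 and -0.33 in SN. The order was the reverse of that of PGF, with Colony highest, SN between and parental A549 lowest, again with no overlap between any 2 groups. Its means were -1.31 ± 0.46, 0.18 ± 0.11 and -0.54 ± 0.21 (SD, n = 3). Probe A_33_P3379886 gave -2.29, -2.49 and -3.003 in parental A549, -1.13, -1.12 and -1.14 in Colony, and -2.19, -2.45 and -0.81 in SN. Here Colony stood above parental A549 without overlap, but SN did not stand between them: SN replicates 1 and 2 lay within or near the parental range and SN replicate 3 lay above every Colony array. The SD of this probe in SN was 0.88, beside 0.37 in parental A549. Over the 9 arrays the probes of FGF2 correlated with r = 0.894, a description over arrays that share groups.

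The promoters of FGF2 and PGF are shown because these were the members called in a comparison, and that of VEGFC because it was highest in SN. Each is the 250 bases before a transcription start in a RefSeq table of build GRCh38.p14, written 5′ to 3′ on the strand of the gene. FGF2 lies on the plus strand at chr4:122826581-122826830, PGF on the minus strand at chr14:74955765-74956014 (the first of 2 windows of that gene), and VEGFC on the minus strand at chr4:176792923-176793172. Capitals mark the letters ACGTG or GCGTG, the core of a hypoxia response element, and CACCC, a core of KLF sites, on either strand (their reverse complements are CACGT or CACGC, and GGGTG).
FGF2: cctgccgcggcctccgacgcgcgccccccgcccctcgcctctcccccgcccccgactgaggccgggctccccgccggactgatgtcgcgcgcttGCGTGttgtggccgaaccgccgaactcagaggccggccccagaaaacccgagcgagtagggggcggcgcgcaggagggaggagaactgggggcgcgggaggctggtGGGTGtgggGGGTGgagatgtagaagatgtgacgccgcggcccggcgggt
PGF: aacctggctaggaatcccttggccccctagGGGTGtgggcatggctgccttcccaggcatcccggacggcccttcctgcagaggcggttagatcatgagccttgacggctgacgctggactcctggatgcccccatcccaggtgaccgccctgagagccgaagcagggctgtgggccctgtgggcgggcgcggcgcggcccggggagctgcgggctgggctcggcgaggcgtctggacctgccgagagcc
VEGFC: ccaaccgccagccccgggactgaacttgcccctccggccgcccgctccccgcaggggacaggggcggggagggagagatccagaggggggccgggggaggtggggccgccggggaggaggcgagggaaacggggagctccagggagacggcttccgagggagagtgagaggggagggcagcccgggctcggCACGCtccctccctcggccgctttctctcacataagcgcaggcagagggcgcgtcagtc
The FGF2 window held 1 GCGTG, 2 CACCC and 3 GGGCGG, the letters of a GC box. The PGF window held 1 CACCC and 2 GGGCGG, and the VEGFC window 1 GCGTG and 2 GGGCGG. The array annotation is of another build, so the sequences describe the genes and not the probes.

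The table held windows for 8 of the 9 members, 12 windows in all, with no entry for VEGFA. Their GC content was 68% to 82.8%, beside a median of 58% over all 35116 windows. GGGCGG was in the 12 member windows and in 42.6% of all windows. CACCC was in 8 of the 12 member windows and in 54.7% of all windows, and ACGTG or GCGTG was in 10 of the 12 and in 43.2% of all. Alone, ACGTG was in 1 member window (18.5% of all windows) and GCGTG in 9 (32.2%). These motifs differ in the first letter, so they do not mark the same letters on the same strand. TATAAA was in the windows of ADM and ANGPTL4 and in 10.7% of all. The octamer core ATGCAAA, the SOX core CATTGT and the AP-1 motif TGANTCA were in 0 member windows and in 3.94%, 9.29% and 6.57% of all. Both strands were searched, and a match describes the letters of the window only.

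VEGFC, the main growth factor of lymphatic vessels, was read by probe A_23_P167096. Its level was 1.97, 2.37 and 2.01 in parental A549, 2.11, 1.93 and 1.72 in Colony, and 2.84, 2.70 and 2.62 in SN. SN was highest and did not overlap either other group, whereas parental A549 and Colony overlapped. The means were 2.12 ± 0.22, 1.92 ± 0.20 and 2.72 ± 0.11 (SD, n = 3).

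VEGFA, the central growth factor of blood vessel sprouting, was read by 2 probes. Probe A_23_P70398 gave 0.66, 0.70 and 0.98 in parental A549, 1.09, 0.90 and 0.73 in Colony, and 0.66, 0.38 and 0.21 in SN. SN was lowest, although its replicate 1 lay just under parental replicate 1, and parental A549 and Colony overlapped. Probe A_24_P12401 gave -0.81, -0.76 and -0.86 in parental A549, -0.29, -0.72 and -0.49 in Colony, and -0.84, -0.90 and -0.95 in SN. Colony was highest without overlap, while parental A549 and SN overlapped. The probes therefore shared the place of Colony above SN and differed in whether it was Colony or SN that stood apart from parental A549. They correlated with r = 0.673 over the 9 arrays.

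VEGFB, which binds FLT1 and is tied more to tissue lipid handling and vessel survival than to sprouting, was read by probe A_23_P1594. It gave 4.64, 4.55 and 5.02 in parental A549, 4.54, 4.60 and 4.57 in Colony, and 4.78, 4.89 and 4.55 in SN. The 3 groups overlapped, and the Colony arrays lay closest together, with an SD of 0.03 beside 0.25 in parental A549 and 0.18 in SN.

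PDGFA, a ligand of the platelet-derived growth factor receptor alpha of mesenchymal cells, was also read by 2 probes. Probe A_23_P113701, printed in 10 spots per array, gave -0.59, -0.46 and 0.27 in parental A549, 0.18, 0.13 and 0.05 in Colony, and 0.03, -0.06 and -0.28 in SN. Parental replicate 3 was the highest of the 9 arrays and the other parental arrays the lowest, and Colony lay just above SN without overlap. Probe A_33_P3372666 ranged from -0.34 to 0.44 in parental A549, from -0.04 to 0.35 in Colony and from -0.38 to 0.13 in SN, with all 3 groups overlapping. The correlation between these probes was 0.919 over the 9 arrays.

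ADM, the vasodilator adrenomedullin, was read by probe A_23_P127948 in 10 spots per array. Its level was 4.75, 4.74 and 5.45 in parental A549, 5.32, 5.35 and 5.44 in Colony, and 5.45, 5.10 and 4.66 in SN. Colony was tight (SD 0.06), and both other groups spanned it, with SDs of 0.41 and 0.40. Parental replicate 3 was again high beside its group, as it was for PDGFA, and r between ADM and PDGFA probe A_23_P113701 was 0.897 over the 9 arrays.

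ANGPTL4, a secreted inhibitor of lipoprotein lipase that also acts on endothelial junctions, was read by probe A_33_P3295358. It gave 3.89, 3.85 and 3.29 in parental A549, 3.55, 3.34 and 2.51 in Colony, and 4.38, 3.72 and 2.96 in SN. The groups overlapped, and replicate 3 was the lowest array in each of them. The SD was 0.34, 0.55 and 0.71, and those of Colony and SN were the widest that either group showed for any member apart from FGF2 probe A_33_P3379886 in SN.

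THBS1, a matrix glycoprotein and inhibitor of vessel growth, was read by 2 probes. Probe A_24_P142118 gave 0.06, 0.10 and 0.46 in parental A549, 0.63, 0.46 and 0.40 in Colony, and 0.55, 0.30 and 1.14 in SN. The highest array was SN replicate 3 and the groups overlapped. Probe A_33_P3415820 was dim, with intensities of 23.5 to 46.3, and ranged from -3.37 to -2.49 in parental A549, from -2.87 to -2.49 in Colony and from -3.30 to -2.55 in SN. The probes of THBS1 correlated with r = 0.599 over the 9 arrays.

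**Figure D1:**
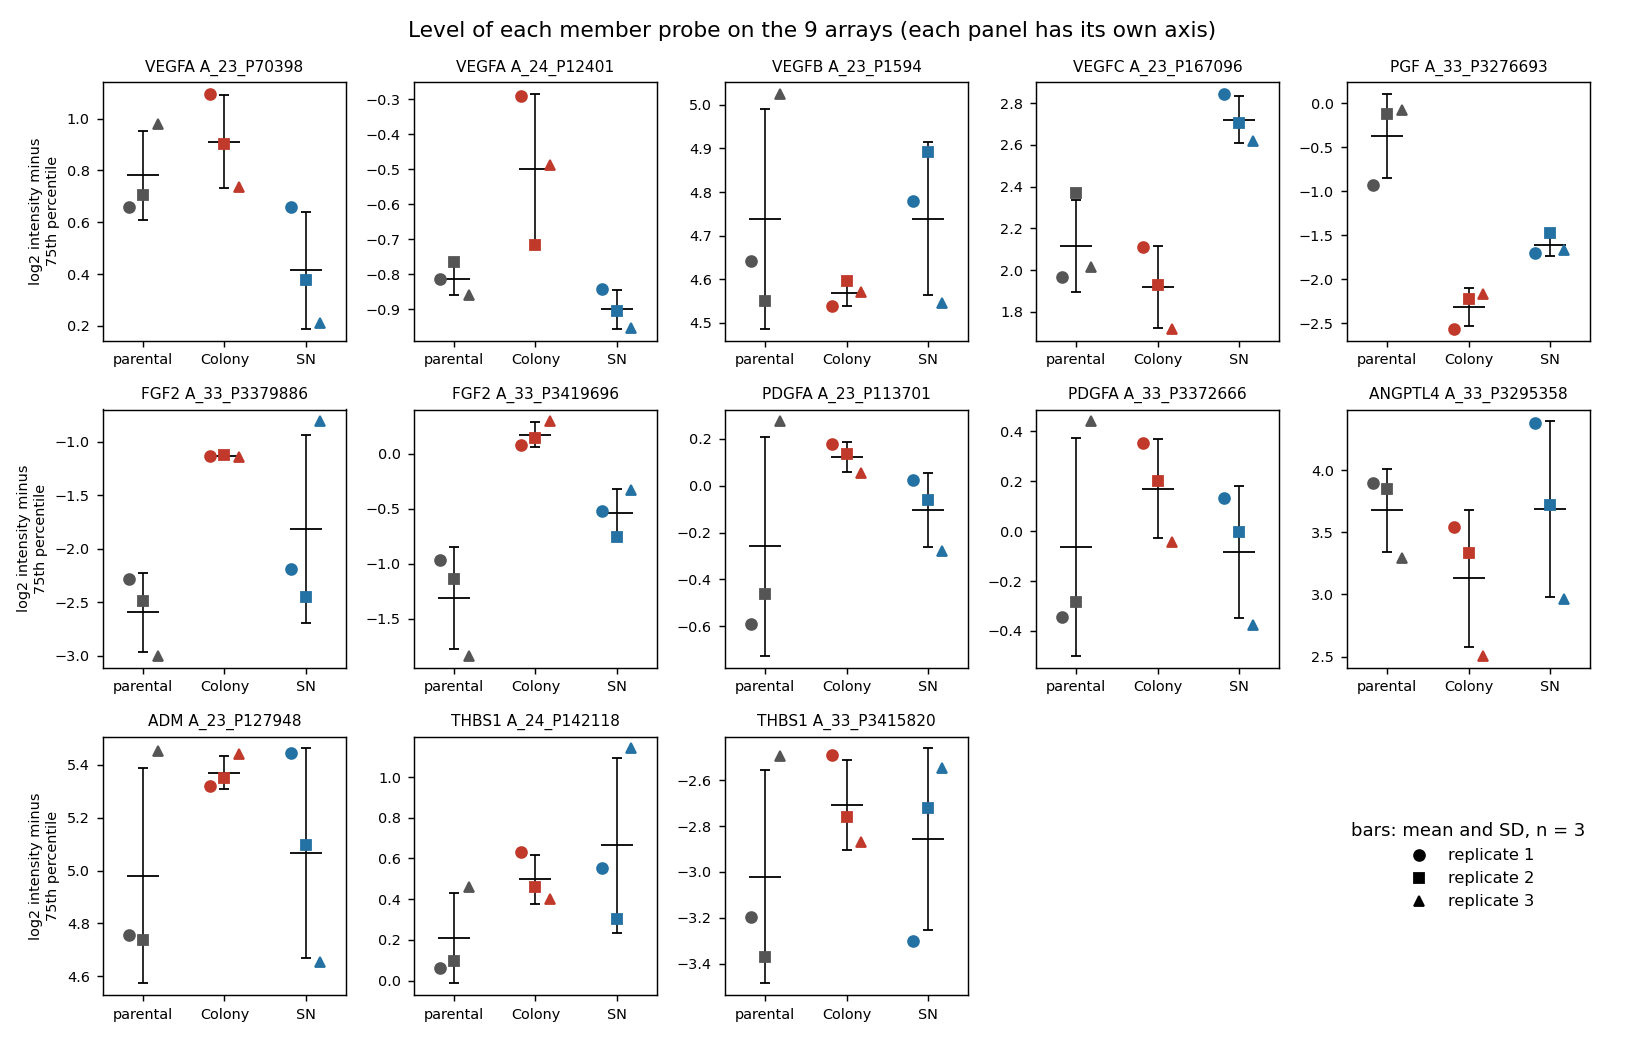
Log2 intensity minus the 75th percentile of the array for each of the 13 member probes (each panel has its own vertical axis), by group, with replicates as symbols and bars for the mean and SD (n = 3). PGF and FGF2 probe A_33_P3419696 separate all 3 groups in opposite order, and SN replicate 3 stands high for FGF2 probe A_33_P3379886 and THBS1 probe A_24_P142118.

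The plot of levels by array shows these patterns side by side. In it, the parental arrays spread more than the Colony arrays for most probes, as they did over the 23758 probes, where the median SD was 0.21 in parental A549, 0.09 in Colony and 0.16 in SN.

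Between OSK-A549-Colony and parental A549, FGF2 rose and PGF fell in the colony cells. FGF2 was 2.81-fold higher by probe A_33_P3419696 (log2 fold change 1.49, SE 0.25, limma adjusted p = 0.0315) and 2.75-fold higher by probe A_33_P3379886 (1.46, SE 0.20, adjusted p = 0.0240). PGF was 3.85-fold lower (log2 fold change -1.95, SE 0.27, adjusted p = 0.0244). Each difference held between any Colony array and any parental array. The changes of VEGFA, VEGFB, VEGFC, PDGFA, ADM, ANGPTL4 and THBS1 did not pass the test.

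A probe was called if its fold change passed 2 and its adjusted p was below 0.05, with p adjusted by the Benjamini-Hochberg method over all tested probes. By that rule 3 of the 13 member probes were called (23.1%), 2 higher and 1 lower, and they belong to 2 of the 9 genes. Over all tested probes limma called 3.70%. The groups did not overlap for 4 member probes (30.8%), beside 41.6% of all tested probes, so separation as such was not more common among the members. The median log2 fold change was 0.29 over the member probes and -0.03 over all 30864 tested probes, with 9 member probes fitted higher and 4 lower. With 1 probe per gene, that of the highest mean, the median was 0.13 and 5 of the 9 genes were fitted higher. The median over the member probes ranged from 0.14 without parental replicate 2 to 0.42 without parental replicate 3, and was 0.15 with normexp. At an unadjusted p under 0.05 stood 3 member probes, beside 30.1% of all tested probes. Among the members not called, ANGPTL4 had the largest fitted difference, -0.55 (SE 0.32, limma adjusted p = 0.312, interval -1.35 to 0.26), followed by ADM at 0.39 (SE 0.22, adjusted p = 0.287). VEGFA was fitted at 0.13 (SE 0.15, adjusted p = 0.579) and 0.31 (SE 0.14, adjusted p = 0.190) by its probes, VEGFC at -0.20 (SE 0.17, adjusted p = 0.459) and VEGFB at -0.17 (SE 0.15, adjusted p = 0.478). PDGFA was fitted at 0.38 and 0.23 (adjusted p = 0.345 and 0.552) and THBS1 at 0.29 and 0.31 (adjusted p = 0.252 and 0.449). The 95% intervals of VEGFA reached from -0.24 to 0.50 and from -0.02 to 0.65, so changes within them were not resolved by 3 arrays a group.

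All 6 arrays of this comparison lay on the same slide. The calls did not survive the loss of every array. Without parental replicate 2 the limma adjusted p was 0.0811 for PGF and 0.0887 and 0.0776 for FGF2 (A_33_P3419696 and A_33_P3379886), and without Colony replicate 1, 2 or 3 it was 0.0764, 0.109 and 0.0908 for PGF. For FGF2 the latter values were 0.0857, 0.128 and 0.113 by A_33_P3419696 and 0.0764, 0.112 and 0.0940 by A_33_P3379886. The number of calls over all probes also dropped in those fits, from 1143 to 1, 141, 0 and 85. With background correction by normexp, FGF2 probe A_33_P3379886 moved to 0.71, under the fold threshold, and with no detection filter the adjusted p of FGF2 probe A_33_P3419696 was 0.0553. Without parental replicate 3 the calls held, with PGF at -1.80 and FGF2 at 1.23 by A_33_P3419696 and 1.26 by A_33_P3379886 (limma adjusted p = 0.0357, 0.0224 and 0.0212). In that fit ADM was fitted at 0.62 (limma adjusted p = 0.0273) and PDGFA probe A_23_P113701 at 0.65 (adjusted p = 0.0291), both under a fold change of 2.

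**Figure D2:**
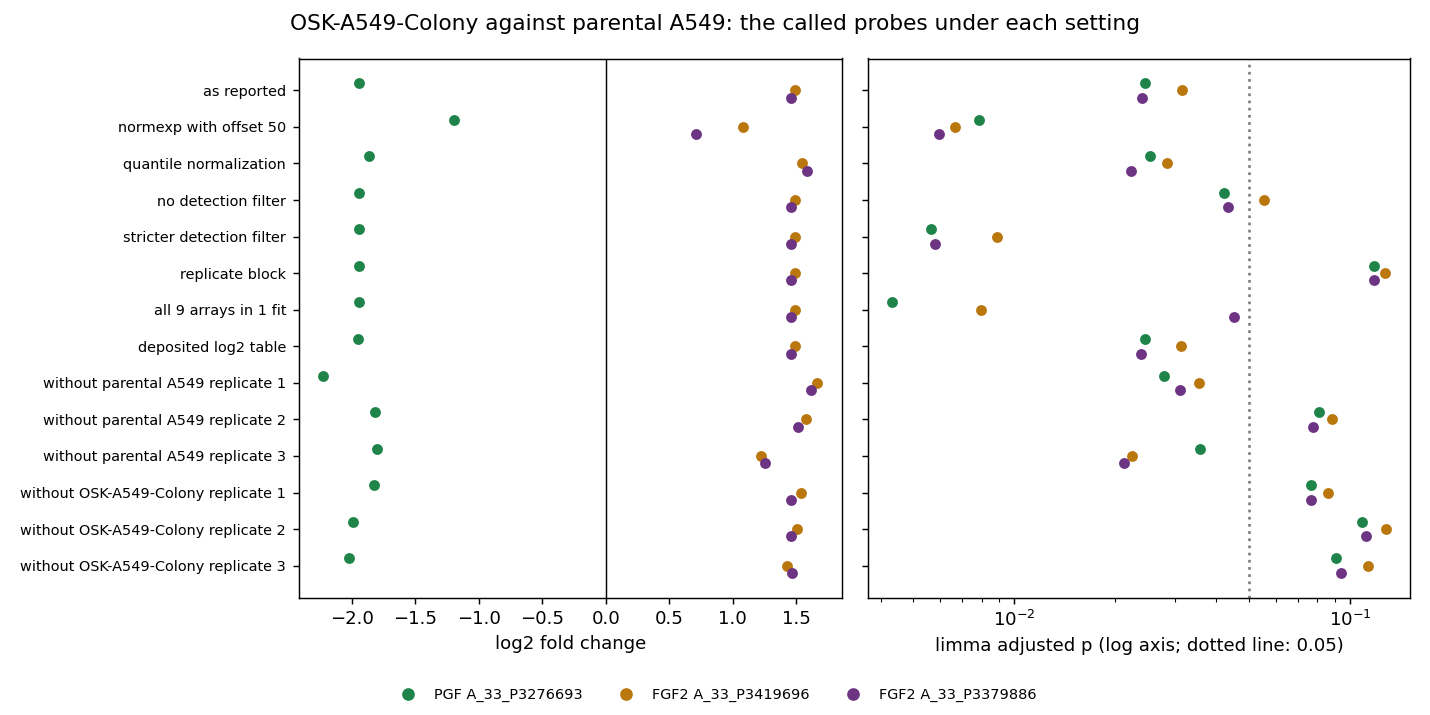
Log2 fold change (left) and limma adjusted p (right, log axis, dotted line at 0.05) of the 3 called member probes for OSK-A549-Colony against parental A549, as reported and under each other setting. The fold changes keep their sign in every setting shown, and the adjusted p of all 3 probes exceeds 0.05 with the replicate block and without parental replicate 2 or any Colony array.

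The plot of the called probes by setting shows that the fitted sizes moved less than the adjusted p. PGF ranged from -2.22 to -1.19, FGF2 probe A_33_P3419696 from 1.08 to 1.66 and probe A_33_P3379886 from 0.71 to 1.61, and in each case the smallest size came with normexp.

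In OSK-A549-SN against parental A549, PGF was again below the parental level and VEGFC above it, but no member passed both thresholds. PGF was fitted 2.37-fold lower (log2 fold change -1.24, SE 0.26, limma adjusted p = 0.0772) and VEGFC 1.52-fold higher (0.61, SE 0.16, adjusted p = 0.115), with no overlap between the groups in either case. FGF2 was fitted at 0.78 by both probes, with SE 0.27 and adjusted p = 0.175 for A_33_P3419696 and SE 0.47 and adjusted p = 0.387 for A_33_P3379886. VEGFA probe A_23_P70398 was fitted at -0.37 (SE 0.18, adjusted p = 0.294), and its SN arrays lay below every parental array.

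With limma, 0 of the 13 member probes were called, beside 1.55% of all 32218 tested probes, and 3 member probes had an unadjusted p under 0.05 (PGF, VEGFC and FGF2 probe A_33_P3419696), beside 21.6% of all tested probes. The groups did not overlap for 4 member probes (30.8%), beside 32.1% of all. The median log2 fold change was 0.08 over the members and 0.08 over all tested probes, with 9 member probes fitted higher and 4 lower. With 1 probe per gene the median was 0.01 and 6 of the 9 genes were fitted higher. The median over the member probes depended on the setting, from -0.02 without SN replicate 1 to 0.32 without parental replicate 3 (0.22 without SN replicate 3, and -0.016 with quantile normalization). THBS1 was fitted at 0.46 (limma adjusted p = 0.357) by A_24_P142118 and at 0.16 (adjusted p = 0.775) by A_33_P3415820. The fitted values of VEGFB, ANGPTL4 and ADM were 0.0008, 0.01 and 0.08, those of PDGFA were 0.15 and -0.02, and that of VEGFA probe A_24_P12401 was -0.09. PGF did pass both thresholds in 2 other fits, with adjusted p = 0.0269 over probes detected on all arrays of a group and 0.0218 with all 9 arrays in 1 fit. Its adjusted p over all settings ran from 0.0218 to 0.230. VEGFC had an adjusted p of 0.0379 with normexp and 0.0474 with all 9 arrays in 1 fit, both under a 2-fold change, and ran up to 0.310.

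SN replicate 3 was on a slide of its own, so the value within the other slide is the one without it. There PGF was fitted at -1.21 (limma adjusted p = 0.152), VEGFC at 0.66 (adjusted p = 0.163), VEGFA probe A_23_P70398 at -0.26 and FGF2 probe A_33_P3419696 at 0.67 (adjusted p = 0.310). With slide as a block these estimates were the same, and the adjusted p was 0.160 for PGF and 0.174 for VEGFC. FGF2 probe A_33_P3379886 moved to 0.27 (adjusted p = 0.593) and THBS1 probe A_24_P142118 to 0.22 (adjusted p = 0.561) without SN replicate 3, so their fitted differences rested largely on that array. Without parental replicate 3, PGF was fitted at -1.09 (limma adjusted p = 0.119), VEGFC at 0.55 (adjusted p = 0.161), and FGF2 at 0.51 by A_33_P3419696 (adjusted p = 0.177) and 0.57 by A_33_P3379886 (adjusted p = 0.530).

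In OSK-A549-Colony against OSK-A549-SN, both made of transduced cells, several members stood apart but no probe passed the test. VEGFC was fitted 1.74-fold lower in Colony (log2 fold change -0.80, SE 0.13, limma adjusted p = 0.106) and PGF 1.63-fold lower (-0.70, SE 0.14, adjusted p = 0.116). FGF2 was fitted higher in Colony, at 0.71 (SE 0.14, adjusted p = 0.112) and 0.68 (SE 0.44, adjusted p = 0.421), and so was VEGFA, at 0.50 (SE 0.16, adjusted p = 0.197) and 0.40 (SE 0.13, adjusted p = 0.198). The groups did not overlap for VEGFC, PGF, both VEGFA probes, FGF2 probe A_33_P3419696 and PDGFA probe A_23_P113701. VEGFB, PDGFA, ADM, ANGPTL4 and THBS1 were fitted between -0.56 and 0.30, with adjusted p from 0.317 to 0.722.

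Those 6 probes are 46.2% of the members, beside 30.8% of all 31746 tested probes. With limma, 0 member probes and 0 probes of the whole array (0%) were called, and the lowest adjusted p on the array was 0.0930. At an unadjusted p under 0.05 stood 5 member probes and 19.5% of all tested probes. The median log2 fold change was 0.23 over the members and -0.06 over all tested probes, and 8 member probes were fitted higher in Colony and 5 lower. With 1 probe per gene, that of the highest mean, the sign turned: the median was -0.17 and 4 of the 9 genes were fitted higher. Without SN replicate 3 the median over the member probes was 0.11, the same as with slide as a block. For VEGFC the adjusted p was 0.0310 with normexp and 0.0456 over probes detected on all arrays of a group, both with a fold change under 2, and over all settings it ran from 0.0310 to 0.322. For FGF2 probe A_33_P3419696 it was 0.0360 with normexp, also under a 2-fold change, and ran up to 0.348.

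Without SN replicate 3, which leaves a single slide, VEGFC was fitted at -0.85 (limma adjusted p = 0.137), PGF at -0.73 (adjusted p = 0.144) and FGF2 probe A_33_P3419696 at 0.82 (adjusted p = 0.137). With slide as a block the adjusted p was 0.146 for VEGFC, 0.155 for PGF and 0.146 for that FGF2 probe. FGF2 probe A_33_P3379886 moved from 0.68 to 1.19 (adjusted p = 0.137), and THBS1 probe A_24_P142118 from -0.17 to 0.07. The 3 comparisons share arrays in pairs, so their fitted values are not independent of each other.

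**Figure D3:**
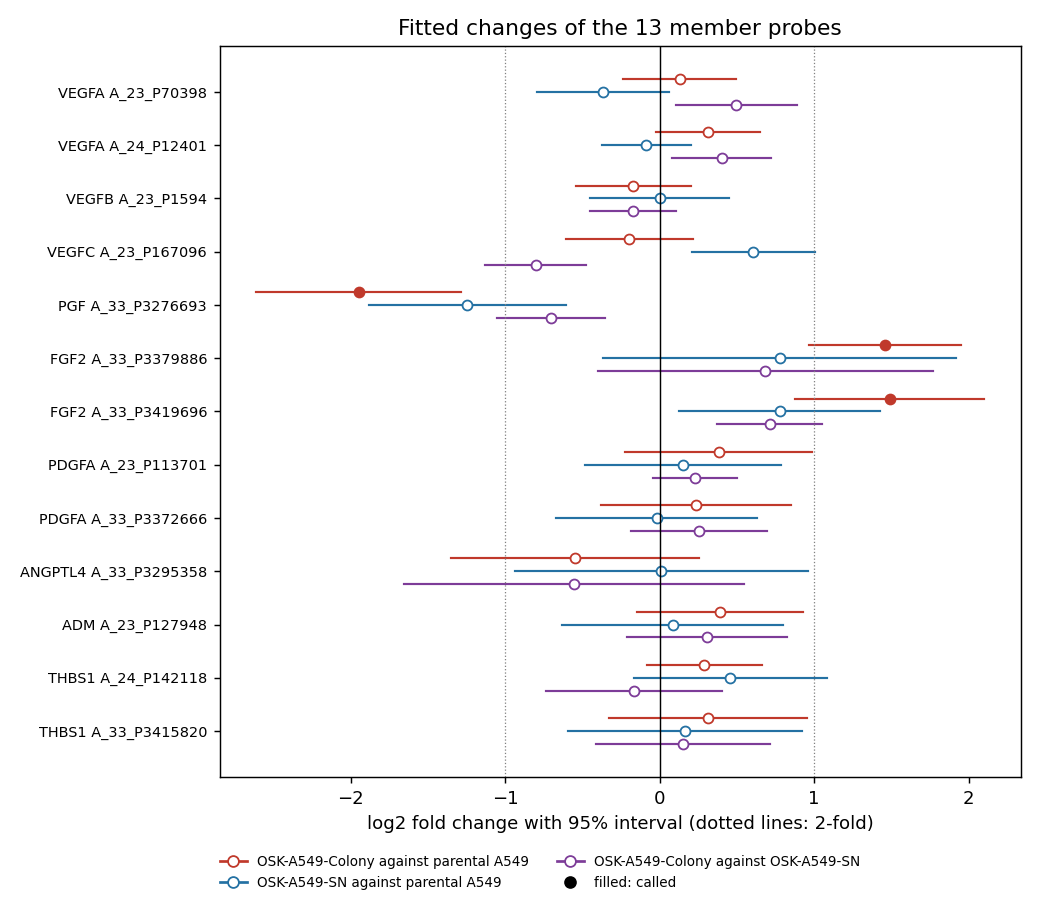
Fitted log2 fold change of each of the 13 member probes with its 95% interval in the 3 comparisons (dotted lines mark a 2-fold change, filled points the called probes). Only PGF and both FGF2 probes are filled, all for OSK-A549-Colony against parental A549, with PGF at -1.95 and FGF2 at 1.49 and 1.46.

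The plot of fitted changes shows the wide intervals of ANGPTL4 and of FGF2 probe A_33_P3379886 in the comparisons with SN, from -0.94 to 0.96 and from -0.37 to 1.92 against parental A549. For VEGFB the interval in SN against parental A549 was -0.45 to 0.45. A 2-fold change of VEGFB in that comparison lay outside its interval, whereas for ANGPTL4 the bounds came close to it.

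The genes whose levels followed PGF most closely over the 9 arrays, among the 23758 probes detected on all of them, were URAHP (r = 0.987), ATXN3 (r = 0.985) and SLC25A35 (r = 0.984). For FGF2 probe A_33_P3419696 they were UFM1 (r = 0.994), PSAT1 (r = 0.989) and BCAS2 (r = 0.989). These values describe likeness over arrays that fall into 3 groups.

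For the lists below, the share of all tested probes with an unadjusted p under 0.05 was 30.1% in Colony against parental A549, 21.6% in SN against parental A549 and 19.5% in Colony against SN. Other vessel-active ligands gave 14 tested genes of 18 in the comparison of Colony with parental A549. With limma 0 were called, 4 had an unadjusted p under 0.05, 6 were fitted higher and 8 lower, and the median was -0.19. Among the 8 are ANGPT2 and FGF18, each detected on 1 parental array and on 0 Colony arrays, so their direction carries no weight. CCN1, a matrix protein that binds integrins of endothelial cells, was at 3.80 ± 0.25 in parental A549 and 4.73 ± 0.07 in Colony (SD, n = 3), a log2 fold change of 0.93 (SE 0.15, adjusted p = 0.0312) that lay under the 2-fold threshold. In SN against parental A549, 1 ligand of 14 was called, beside 1.55% of all tested probes. ANG, the secreted ribonuclease angiogenin, fell by 1.39 on the log2 scale (SE 0.19, limma adjusted p = 0.0406, 2.63-fold lower), from 4.02 ± 0.30 to 2.62 ± 0.13. This ANG call was lost when any 1 array was left out (adjusted p = 0.0544 to 0.156), with no filter (adjusted p = 0.0584) and with slide as a block (adjusted p = 0.0898). Of the 14 ligands 13 were fitted lower in SN, with a median of -0.40 beside 0.08 over all tested probes. Among the 13 is ANGPT2, detected on 1 parental array and on 0 SN arrays. It entered the comparison only through the group where it was higher, so its direction carries no weight. Between Colony and SN 11 of 13 ligands were fitted higher in Colony with a median of 0.26, 5 had an unadjusted p under 0.05 and 0 were called. FGF18, fitted lower there, was detected on 0 Colony arrays and 1 SN array. It entered only through the group where it was higher, so its direction carries no weight. ANGPT1, among the 11, was detected on only 2 Colony arrays and 1 SN array. ANG lay 0.72 (SE 0.10, limma adjusted p = 0.105) above SN there.

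Only some receptors and co-receptors for these ligands were detected, each judged by 1 probe. Of 20 genes, 10 were detected on all 9 arrays, 2 on some and 8 on none. The receptors on none were FLT1, PDGFRA, PDGFRB, TEK, TIE1, RAMP2, RAMP3 and CD36, and KDR was detected on 1 SN array only. FLT4, the neuropilins NRP1 and NRP2, FGFR1, FGFR2, FGFR3, FGFR4, CD47 and the syndecans SDC1 and SDC4 were detected on all 9. With limma 0 receptor genes were called in each comparison, while 4 of 11, 5 of 12 and 5 of 12 had an unadjusted p under 0.05 in Colony against parental A549, SN against parental A549 and Colony against SN, beside 30.1%, 21.6% and 19.5% of all tested probes. CD47, a receptor of THBS1, was fitted at 0.51 (SE 0.11, limma adjusted p = 0.0511) in Colony against parental A549. FGFR2, a receptor of fibroblast growth factors, was at -0.37 ± 0.12 in parental A549, -0.67 ± 0.24 in Colony and -1.34 ± 0.07 in SN. It was fitted at -0.98 in SN against parental A549 (SE 0.13, limma adjusted p = 0.0398), just under a 2-fold change, and at 0.67 in Colony against SN (SE 0.14, adjusted p = 0.124). The medians of the list were 0.11, 0.29 and 0.06 in the order of the comparisons above. In both comparisons with SN the tested genes include KDR, which entered only through 1 SN array, so its direction carries no weight. CALCRL, detected on 2 of the 9 arrays, is counted as well.

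Secreted inhibitors of vessel growth other than THBS1 had 0 called genes with limma in each comparison, and 3 of 14, 4 of 12 and 2 of 15 tested genes had an unadjusted p under 0.05. Their medians were -0.09, -0.04 and 0.11. The tested genes include some detected on few arrays, TIMP3, HRG and ANGPTL1 on 1 each and THBS2 on 2. Such genes entered a comparison only through those arrays, so their direction carries no weight. PF4, platelet factor 4, which binds heparin and blocks growth factor access, was at 0.15 ± 0.28 in parental A549, -0.68 ± 0.03 in Colony and -0.78 ± 0.19 in SN. Its fitted differences from parental A549 were -0.83 in Colony (SE 0.16, limma adjusted p = 0.0390) and -0.94 in SN (SE 0.19, adjusted p = 0.0763), each under a 2-fold change. SPARC, a matricellular protein, was well above background on 2 SN arrays and on no array of the other groups, so no size is given for its difference between Colony and SN (limma adjusted p = 0.110). It is among the 2 of 15 genes counted in that comparison, which it entered only through SN.

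Genes of the oxygen-sensing machinery, 10 of 10 detected on all arrays, had 0 calls with limma in each comparison and 0, 1 and 1 genes at an unadjusted p under 0.05. HIF1A, the oxygen-regulated subunit, was fitted at 0.37 (SE 0.18, limma adjusted p = 0.224) in Colony against parental A549. EPAS1, which encodes HIF-2 alpha, was at 6.48 ± 0.06 in parental A549, 6.42 ± 0.05 in Colony and 7.05 ± 0.11 in SN (SD, n = 3). SN was above both other groups without overlap, by 0.58 over parental A549 (SE 0.13, limma adjusted p = 0.0836), and Colony was fitted at -0.63 against SN (SE 0.09, adjusted p = 0.105). Of 15 tested hypoxia-responsive genes outside the members, 0 were called with limma in each comparison and 2, 3 and 1 had an unadjusted p under 0.05, with medians of -0.01, 0.03 and -0.02. VLDLR, a lipoprotein receptor, was fitted at 0.84 in Colony against parental A549 (SE 0.11, limma adjusted p = 0.0240) and at 0.47 against SN (SE 0.15, adjusted p = 0.198). ANKRD37 was fitted at 0.89 in SN against parental A549 (SE 0.19, adjusted p = 0.0772).

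ANGPTL4 is also a target of the PPAR nuclear receptors. Among 9 tested PPAR targets, 1 was called in Colony against parental A549, beside 3.70% of all tested probes. This was PDK4, a kinase that holds back pyruvate oxidation, which fell by 1.04 on the log2 scale (SE 0.10, limma adjusted p = 0.0155, 2.06-fold lower), from 2.87 ± 0.07 to 1.83 ± 0.08. Among the settings in which its call was lost were those without parental replicate 2 (adjusted p = 0.0616), without Colony replicate 1, 2 or 3 (adjusted p = 0.0563, 0.101 and 0.0758) and with normexp, where the log2 fold change was -0.99. In SN the level was 2.02 ± 0.11, a log2 fold change of -0.84 against parental A549 (SE 0.13, limma adjusted p = 0.0444) under the 2-fold threshold. In both comparisons with parental A549, 1 of the 9 genes was fitted higher and 8 lower, with medians of -0.18 and -0.34. In SN against parental A549 limma called 0 of them and 4 had an unadjusted p under 0.05. Between Colony and SN the counts were 0 and 2, and CPT1A, a mitochondrial fatty acid importer, had the smallest p (0.53, SE 0.11, adjusted p = 0.126).

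YAP and TEAD targets, which include CCN1 and CCN2, had 0 calls with limma in each comparison. At an unadjusted p under 0.05 stood 2 of 9 genes in Colony against parental A549, 4 of 10 in SN against parental A549 and 5 of 10 in Colony against SN, beside 30.1%, 21.6% and 19.5% of all tested probes. The medians were -0.01, -0.41 and 0.30, and 8 of 10 genes were fitted lower in SN than in parental A549. In both comparisons with SN the counts include ANKRD1, which was detected on 2 parental, 3 Colony and 0 SN arrays. It entered them only through the group where it was higher, so its direction there carries no weight. CRIM1, detected on 1 SN array only, is also among the 10 genes. CCN2, a matrix-bound growth factor modulator, was at -0.42 ± 0.19 in parental A549, -0.14 ± 0.21 in Colony and -1.28 ± 0.34 in SN. Its fitted difference was -0.87 in SN against parental A549 (SE 0.22, limma adjusted p = 0.102). CCN1 was fitted at 0.99 in Colony against SN (SE 0.14, adjusted p = 0.105).

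The plot of the lists sets them side by side, and in it each list holds genes on both sides of 0 except the endothelial markers in Colony against SN. Only 4 of these markers were tested there. KDR, which is among them, was detected on 1 SN array and 0 Colony arrays, so it entered only through the group where it was higher. The lists are described by counts and medians, and no difference between lists was tested.

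Markers of other cell types were detected in part. Of 11 endothelial markers, CDH5, VWF and ESAM were detected on all 9 arrays, KDR and EMCN on 1 each, and PECAM1, TEK, TIE1, CLDN5, ROBO4 and ERG on 0. Their summed level, in units of the 75th percentile of the array, was 0.557, 0.509 and 0.798 in parental A549, 0.411, 0.491 and 0.451 in Colony, and 0.537, 0.577 and 0.739 in SN. Averaged over the 9 arrays, the ESAM probe gave the largest part of this signal, which does not rank the genes by amount of RNA. Its share was lowest, at 27.4%, on parental replicate 3, the only parental array on which EMCN was detected. Parental replicate 3 and SN replicate 3 had the highest sums, and Colony had the lowest, though only just below parental replicate 2. This sum, like the stromal one, includes probes that were not detected, which add background to it. Of 10 stromal markers, ACTA2 was detected on all 9 arrays, COL1A1 on 3 and the other 8 on none. The stromal sum was 1.33, 2.47 and 4.25 in parental A549, 1.31, 0.995 and 0.965 in Colony, and 1.85, 1.86 and 1.59 in SN, with the ACTA2 probe giving the largest part throughout. Colony was the lowest here too, its replicate 1 only just below parental replicate 1. Limma called 0 genes of either list in each comparison. At an unadjusted p under 0.05 were 2, 0 and 0 endothelial and 1, 0 and 1 stromal markers, in the order Colony against parental A549, SN against parental A549 and Colony against SN. ESAM was fitted at -0.42 in Colony against parental A549 (SE 0.13, limma adjusted p = 0.107) and -0.47 against SN (SE 0.21, adjusted p = 0.290), and ACTA2 at -1.30 (SE 0.45, adjusted p = 0.124) and -0.81 (SE 0.15, adjusted p = 0.110). The other detected markers did not all share that direction: in Colony against parental A549 VWF was fitted at -0.47, CDH5 at 0.33 and COL1A1 at 0.63, and against SN they were fitted at -0.71, -0.24 and 0.30. Without parental replicate 3, ACTA2 was fitted at -0.87 (limma adjusted p = 0.146) in Colony against parental A549 and at -0.06 in SN. For SN against parental A549 the smallest p belonged to EMCN, detected on 1 parental array only, and to ACTA2 at -0.49 (SE 0.44, adjusted p = 0.544). The part of these markers in the result was not tested.

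Epithelial markers were detected throughout, 7 of 7 on all 9 arrays. The summed level was 1590, 1609 and 1791 in parental A549, 1488, 1564 and 1582 in Colony, and 1716, 1848 and 1506 in SN, with KRT18 making up 53.6% to 60.8%. Colony was below parental A549, though its replicate 3 was only just below parental replicate 1, and SN replicate 3 was below the other SN arrays. With limma 0 of the 7 markers were called in each comparison, and 4, 1 and 1 had an unadjusted p under 0.05. CDH1, the adhesion protein E-cadherin, was fitted at -0.996 in Colony (SE 0.17, limma adjusted p = 0.0318), just under a 2-fold change, and at -0.83 in SN (SE 0.19, adjusted p = 0.0860) against parental A549. In Colony against parental A549, 3 of the markers were fitted higher and 4 lower. KRT19 was fitted at 1.18 there (SE 0.29, adjusted p = 0.0625) and CLDN4 at 0.74 (SE 0.32, adjusted p = 0.188), opposite to CDH1 and both without overlap. KRT19 was fitted at 1.22 in Colony against SN (SE 0.28, adjusted p = 0.134). The part of these markers in the changes of FGF2 and PGF was not tested.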

How the data were processed

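The authors deposited the scanner output of Agilent Feature Extraction 11.5.1.1, in which the intensity of each spot is background-subtracted but not scaled between arrays. A table of log2 values, likewise deposited, closely followed the log2 intensity used here minus 1 constant per array. Its column medians were -3.64, -3.66 and -3.56 for parental A549, -3.72, -3.80 and -3.82 for Colony and -3.71, -3.68 and -3.55 for SN. So its scale is log2 and its direction is that of the intensity. On each array the constant lay close to the log2 of the 75th percentile used here, though the sources used here do not state the basis of the centring.

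Spots with an outlier flag (357 to 484 of 62976 per array) and 4259 control spots were left out, log2 was taken, the 75th percentile was subtracted and spots of a probe were averaged. No spot was saturated (0 on each array). A probe was detected where a share of at least 0.5 of its spots was positive, significant and well above background, which gave 25808 to 29315 probes per array. The lowest detected intensity was 9.41 to 14.4. A RefSeq accession was carried by 32065 probes, and 30275 received a name from a RefSeq gene table without version numbers. The array annotation uses hg19 and that table GRCh38.p14, so no probe coordinates are given.

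Pairs of groups were compared by the lmFit and eBayes functions of limma 3.58.1 (R 4.3.3, with package data.table in version 1.17.8) on their own 6 arrays, over probes detected on at least 1 of them, with Benjamini-Hochberg adjustment over all of these. The procedure was also run on simulated data, from which no value is given here and no support is drawn. All member probes are described. Other lists use for each gene the probe with the highest mean, and name the called genes (at most 4 by size) or, with 0 called, the gene with the smallest p. Genes named beyond this rule, such as the receptors by detection, were chosen after their values were seen. For called members, the 3 genes of highest Pearson r are named. The members and lists were chosen with earlier results of these data known.

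Alternatives were normexp (offset 50), quantile normalization, no filter, a stricter filter, replicate block, all 9 arrays in 1 fit, slide as a block, the deposited table, unadjusted p, no fold threshold and leaving out each array. Normexp used the median signal of the spot, since the scanner output used here holds no mean signal. Slide 1 held 8 arrays and slide 2 held SN replicate 3.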

Additional observations from a re-analysis of the deposited data

How the results depend on the processing

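Quantile normalization changed no call of a member probe. The deposited table changed none either, but it holds the same log2 signal minus 1 constant per array. Its outcome was thus largely fixed in advance and is no independent check. In OSK-A549-Colony against parental A549, where 3 member probes were called, leaving out 1 array gave 0 to 3 calls (0 without parental replicate 2 or any Colony replicate). Over all probes, the 1143 calls became 333 with normexp, 583 with no filter, 2038 at unadjusted p, 2783 with no fold threshold and 0 to 1362 with 1 array left out. In OSK-A549-SN against parental A549, the stricter filter, all 9 arrays in 1 fit and unadjusted p each gave 1 member call (PGF) in place of 0. Its 498 calls over all probes became 232 with normexp, 215 with no filter, 980 with the stricter filter, 1085 with all 9 arrays, 187 with slide as a block, 1879 at unadjusted p and 0 to 190 with 1 array left out. In OSK-A549-Colony against OSK-A549-SN no setting called a member, and over all probes 0 calls became 32 with normexp, 139 with the stricter filter, 9 with all 9 arrays and 662 at unadjusted p. Fits without an array rest on fewer samples. The cause of the other changes was not tested.

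With replicate number as a block, 0 member probes and 0 of all probes were called in each comparison. Against parental A549, the limma adjusted p of Colony was 0.118 for PGF and 0.127 and 0.118 for FGF2 (A_33_P3419696 and A_33_P3379886), while for PDK4 it was 0.118 and for ANG in SN 0.175. Same-numbered arrays deviated together with r of -0.01, -0.05 and -0.02 for Colony and parental A549, 0.15, -0.20 and -0.01 for SN and parental A549, and 0.24, 0.07 and 0.14 for Colony and SN, so not every pair passed 0.1 and the numbers were not taken as pairs. Colony and SN of a number have the same passage in their titles and each array there correlated best with its own number, but no label or method used here states that a number marks 1 experiment.

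Signs that turned were of fitted values near 0. In SN against parental A549, ADM (0.08) became -0.016 with quantile normalization and -0.028, -0.037 and -0.11 without parental 1, parental 2 or SN 1, with -0.11 to 0.32 over all arrays left out. ANGPTL4 (0.01) became -0.086 with quantile normalization and -0.18, -0.34 and -0.0046 without parental 3, SN 1 or SN 2 (range -0.34 to 0.37). VEGFB (0.0008) became -0.013 with normexp, -0.11 with quantile normalization and -0.048, -0.094, -0.020 and -0.075 without parental 1, parental 2, SN 1 or SN 2 (range -0.094 to 0.14). PDGFA A_23_P113701 (0.15) became -0.012 without parental 1 (range -0.012 to 0.42), and A_33_P3372666 (-0.020) became 0.13 with slide as a block and 0.23 and 0.13 without parental 3 or SN 3 (range -0.16 to 0.23). THBS1 A_33_P3415820 (0.16) became -0.011 without parental 2 (range -0.011 to 0.43). In Colony against SN, THBS1 A_24_P142118 (-0.17) became 0.070 with slide as a block and without SN 3 (range -0.35 to 0.070), and A_33_P3415820 (0.15) became -0.073 without SN 1 (range -0.073 to 0.31). The cause was not tested.

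With 3 arrays a group, small differences were not resolved. Dim probes limit PGF in Colony, FGF2 A_33_P3379886 and THBS1 A_33_P3415820, whose intensities lay between 23.5 and 154 while the lowest detected intensity was 9.41 to 14.4. Background correction by normexp with an offset compresses such values. Passage and transduction cannot be told apart, and protein was not measured here.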
